A study of Mus musculus with 31 samples.

Results

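Leukocytes from irradiated mouse mammary tumours were compared with those from mock-treated tumours 13 days after a single dose of 20 Gy. Of the 31 libraries in the series, 11 belong to this comparison: 7 titled 1x20Gy and 4 titled 1x0Gy at day 13. They were chosen by these titles, and each is a table of counts over 38406 gene symbols. All host mice were wildtype female C57BL/6 with AT3-OVA tumours in the mammary fat pad, transplanted cells of a triple negative mammary line made to carry the foreign antigen ovalbumin, so 1 tumour line stands for the disease. In the 1x20Gy group a 6 MeV electron beam reached the tumour through holes in a lead shield. The 1x0Gy group had the same ketamine and xylazine anaesthesia and no radiation. At harvest, cells carrying CD45.2, the form of the pan-leukocyte surface protein CD45 found in this strain, were sorted, and their total RNA (integrity number above 8.5) was sequenced in bulk. Neither the age of the mice nor whether each library came from its own animal is given in the sources used here, so p-values measure the spread between these libraries, which may in part be technical.

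Ionising radiation breaks DNA and kills tumour cells over days, and the tumour is then refilled by cells from the blood. Macrophages engulf the dead cells, digest them in lysosomes and handle the lipid and iron that this releases. Natural killer (NK) cells and CD8 T cells kill tumour cells with perforin and granzymes, regulatory T cells restrain them, and plasmacytoid dendritic cells are specialised producers of type I interferon. Cells short of oxygen stabilise the transcription factor HIF-1, which switches on glucose uptake, glycolysis and angiogenic factors. The comparison asks which of these programmes differed between irradiated and mock tumours at this later time.

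Ptprc, which codes for the sorted protein CD45, was abundant in all 11 libraries. It stood at 777 ± 282 CPM after 1x20Gy (SD, n = 7) and 699 ± 214 CPM after 1x0Gy (n = 4), a log2 fold change of 0.15 that did not pass the test (adjusted p = 0.759). CPM are counts scaled to a common library total with TMM, a factor per library that sets the bulk of genes level, and fold changes are given on the log2 scale as 1x20Gy minus 1x0Gy with their standard error (SE). Libraries held between 2641229 and 4214112 gene counts. The clone-named gene RP23-81C12.3, whose product is not given in the sources used here, took 19.2 to 31.5% of gene counts after 1x20Gy and 15.01, 14.3, 2.15 and 5.54% in mock libraries 1 to 4 (exact permutation test, two-sided p = 0.00303, adjusted 0.00606 over 6 library measures). Mitochondrially encoded genes took 1.03 to 3.96% after 1x20Gy, with libraries 2 and 5 highest, and 1.92 to 4.02% after 1x0Gy.

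**Figure D1:**
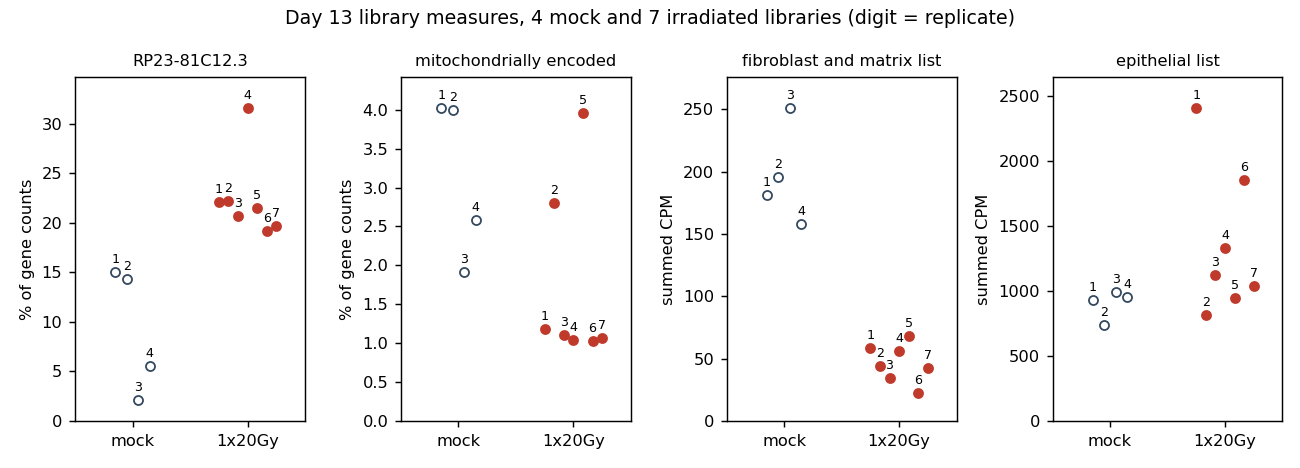
Share of gene counts on RP23-81C12.3 and on mitochondrially encoded genes (%) and summed level of the fibroblast and epithelial lists (CPM), 1 panel each, with a point per library and its replicate digit, open for 1x0Gy (mock, 4 libraries) and filled for 1x20Gy (7). The RP23-81C12.3 share does not overlap between the groups (19.2% and above against 15.01% and below), nor does the fibroblast sum, whereas the mitochondrial share and the epithelial sum do.

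Of 11071 genes tested with edgeR's quasi-likelihood test, 467 rose (4.22% of those tested) and 424 fell (3.83%) at an adjusted p below 0.05, 8.05% in all. Among these, 194 rose and 176 fell at least 2-fold, and the median SE over all genes was 0.19. An unadjusted p below 0.05 in this test was found for 2583 of the 11071 genes, beside which the unadjusted counts of lists below stand. In bulk RNA, fewer cells of a type and less RNA per cell cannot be told apart, which holds for each gene group that follows. With scaling to library size alone, 222 genes were higher and 1311 lower, 14.5% of the calls being higher in place of 52.4%, and the median gene moved by -0.23, so fold changes are relative to the bulk of genes. With that scaling, of the genes named below, Pdcd1, Icos, Batf, Ikzf2, Lck, Tcf7, Gzmk, Nkg7, Pacsin1, Plac8, Maf, Clec10a, Naaa, Relb, Vwf, Bax, Socs1, Irf1, Cd274, Csf1, Cxcr6, Ppp1r15a, Atf4 and Srebf2 lost their calls. In 1 fit over all 31 libraries of the series, which share an estimate of the spread, 272 genes were higher and 356 lower, and besides the groups for which this is given below, Gzmk, Klrd1, Nkg7, Plac8, Clec10a, Naaa, Cldn4, Krt7, Krt19, Vwf, Bax, Cd274, Irf1, Iigp1, Tap2, H2-Aa, Cdk1, Csf1, Cxcr6, Hspa1a, Ppp1r15a, Atf4, Trib3, Gas6, Plau, Col1a2, Col3a1, Ankrd37, Car9, Pfkl and Aldoa lost their calls. With the share of reads outside genes as a term (20.1 to 32.02% after 1x20Gy, 17.4 to 23.1% after 1x0Gy), 628 were higher and 550 lower, of which 332 and 262 were among the 467 and 424. Genes that lost their calls with that term included Kcnh1, G0s2, Naaa, Iigp1, Ifi30, H2-Aa, Cdk1, Atf4, Trib3, Gas6, Plau, Ldha, Gapdh, Car9, Ankrd37 and Aldoa. Without mock library 3, which had the smallest RP23-81C12.3 share, 132 rose and 174 fell. Without mock library 1 or 2, 299 and 252 rose, and without irradiated library 4, 311. With the RP23-81C12.3 share as a term in the fit 0 genes passed (910 at an unadjusted p below 0.05), and since that share does not overlap between the groups, it and the treatment cannot be told apart.

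NK cell genes rose. Of 12 measured members of the NK cell list, 8 rose and 0 fell, and the list's median log2 fold change was 1.27 beside 0.01 over all genes tested. Ncr1 codes for NKp46, an activating receptor that marks NK cells (chr7:4337724-4345164, forward strand, GRCm38). It stood at 3.68, 2.697, 4.18 and 9.47 CPM in mock libraries 1 to 4 and 8.16 to 40.7 (median 16.6) after 1x20Gy, a log2 fold change of 1.999 (adjusted p = 0.0103, SE 0.43). Only irradiated library 5, the lowest of its group, lay below the highest mock library. Klra8 codes for Ly49H, an activating receptor known for its part in defence against cytomegalovirus (chr6:130115226-130129898, reverse strand). Its level was 1.84, 0.2697, 1.25 and 2.54 CPM in the mock libraries and 2.04 to 15.04 (median 5.37) CPM after 1x20Gy, with a log2 fold change of 2.32 (adjusted p = 0.0143, SE 0.54). The ranges overlapped by a single irradiated library, again library 5. Klra4, which codes for the related receptor Ly49D, rose by a log2 fold change of 1.71 (adjusted p = 0.00461, SE 0.32) from 4.903, 5.12, 4.599 and 9.01 CPM to between 8.57 and 30.7 CPM (median 16.4). Klra genes are close copies of each other, and how reads shared between copies were counted is not given in the sources used here, so the value of each copy is uncertain. Klrc2 (log2 fold change 1.37), Klre1 (1.29) and Klri2 (1.26), receptor genes of the same gene complex, and the kinase gene Txk (1.17) completed the members that rose, with Eomes below. The other measured members, Klrb1c, Klra1, Klra7 and Xcl1, had log2 fold changes between 0.17 and 1.05 that did not pass.

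Genes of cytotoxic lymphocytes rose in part. In this list 8 of 17 measured members rose and 0 fell, with a median of 0.84. Tbx21 codes for T-bet, the transcription factor of type 1 lymphocytes. It stood at 144, 107, 93.7 and 175 CPM in the mock libraries and 217 to 567 (median 365) after 1x20Gy, a log2 fold change of 1.51 (adjusted p = 0.0039997, SE 0.28). Every irradiated library lay above every mock library, as for 367 genes (3.31% of those tested) in this direction. Eomes codes for the partner factor Eomesodermin and also stands in the NK list. It went from 14.7, 7.82, 7.53 and 17.1 CPM to between 21.1 and 39.04 CPM (median 33.6), a log2 fold change of 1.43 (adjusted p = 0.00254, SE 0.24), again with no overlap. Ccl5, a chemokine stored by cytotoxic lymphocytes, measured 179, 152, 235 and 286 CPM in mock libraries and 285 to 843 (median 408) after irradiation. Its log2 fold change was 1.31 (adjusted p = 0.0101, SE 0.28), and irradiated library 5 lay just under the highest mock library. Gzmk (log2 fold change 1.20), Klrd1 (1.20), Crtam (1.05), Nkg7 (0.99) and Klrk1 (0.84) also rose. Gzmb, which codes for granzyme B, had a log2 fold change of 0.35 (adjusted p = 0.437, SE 0.25), and Ifng, the gene of interferon gamma, one of 0.65 (adjusted p = 0.301, SE 0.36). Prf1, which codes for perforin, had a log2 fold change of 1.32 (adjusted p = 0.0788, SE 0.44), with 11.3, 11.6, 3.34 and 10.9 CPM in mock libraries against 9.33 to 47.8 (median 20.5) and overlapping groups. None of these 3 passed, and that they differ from the genes that rose was not tested.

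Fewer genes of both lists passed without mock library 3. Then 4 NK and 5 cytotoxic genes rose, and the adjusted p of Ncr1 and Klra8 came to 0.0531 and 0.0654, while Tbx21, Eomes, Ccl5 and Klra4 passed with each of the 11 libraries left out in turn. In a further fit, the mean log2 CPM over the measured epithelial and fibroblast genes together was added as 1 term. With it, 1 NK and 2 cytotoxic genes passed. Genes in this term themselves rose or fell after 1x20Gy (given below), so it can carry part of the treatment difference.

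**Figure D2:**
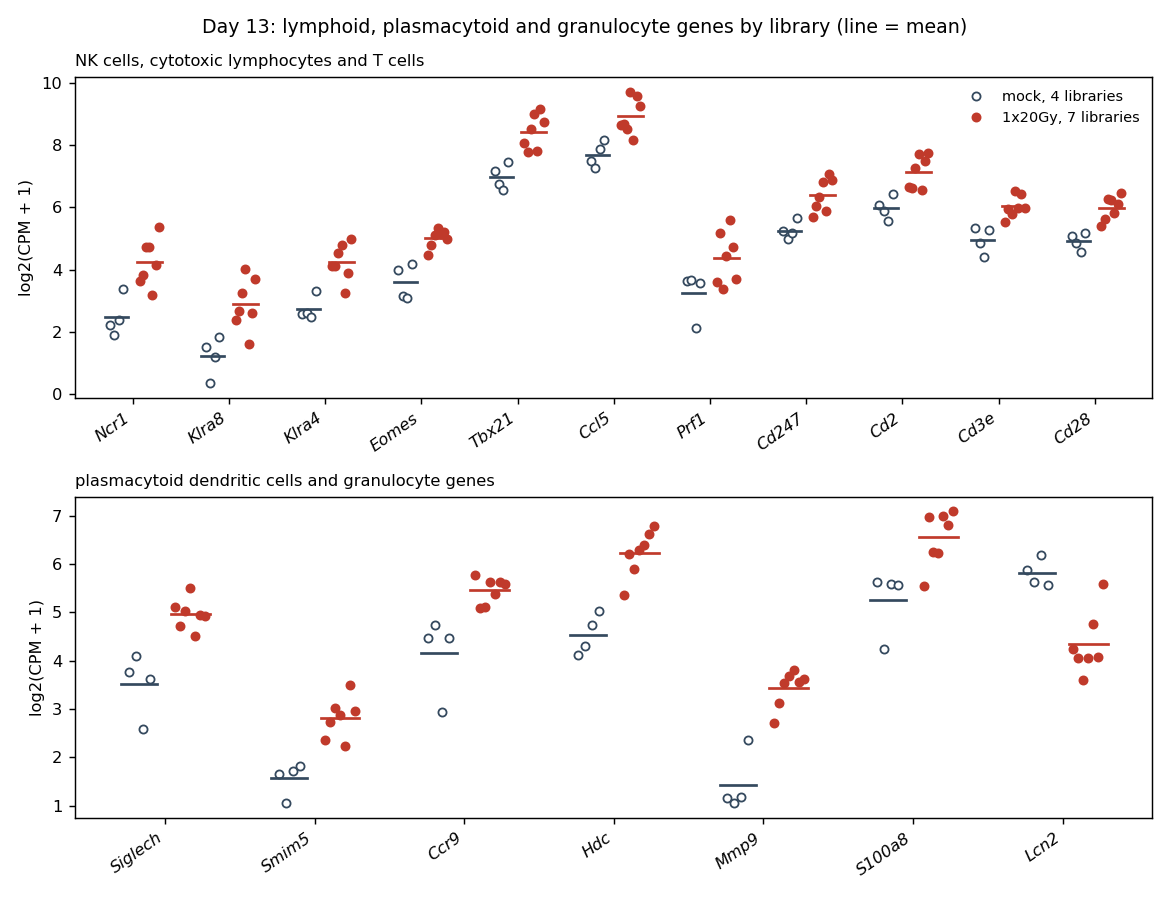
Level of NK, cytotoxic and T cell genes (upper panel) and of plasmacytoid dendritic cell and granulocyte genes (lower panel) as log2(CPM + 1), with a point per library, open for 1x0Gy (mock, 4) and filled for 1x20Gy (7), and a line at each group's mean. The groups do not overlap for Tbx21, Eomes, Siglech, Hdc and Mmp9, and they do for Prf1, while Lcn2 is the 1 gene shown whose irradiated mean is lower.

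T cell genes rose as well. Of 23 measured members of the T cell list 12 rose and 0 fell, with a median of 0.82. Cd3e and Cd247 code for the epsilon and zeta chains of the T cell receptor complex, and NK cells use the zeta chain too. Cd3e measured 39.2, 27.8, 20.3 and 37.6 CPM in mock libraries and 45.7 to 90.8 (median 62.1) after 1x20Gy, a log2 fold change of 1.09 (adjusted p = 0.00601, SE 0.21). Cd247 measured 36.5, 30.5, 34.9 and 49.4 CPM and 50.9 to 133 (median 80.5) CPM, with a log2 fold change of 1.23 (adjusted p = 0.009095, SE 0.26). Neither gene's groups overlapped. The costimulatory receptor gene Cd28 went from 32.5, 28.05, 22.6 and 35.1 CPM to between 40.8 and 86.4 CPM (median 68.7, log2 fold change 1.13, SE 0.20, adjusted p = 0.00354), and the adhesion receptor gene Cd2, shared with NK cells, from 65.9, 58.2, 46.4 and 85.9 to between 93.5 and 216 CPM (median 153, log2 fold change 1.23, SE 0.26, adjusted p = 0.00916). Both were separate between the groups in all 11 libraries. Signalling genes downstream of the receptor, Zap70 (log2 fold change 1.02), Lck (0.84) and Skap1 (1.05), and the transcription factor genes Tcf7 (1.08) and Bcl11b (0.97) rose too. Cd8b1, the beta chain of the CD8 coreceptor, rose by 1.12, Cd8a had a log2 fold change of 0.59 (adjusted p = 0.145, SE 0.24), and Cd4, which some myeloid cells also express, had -0.23 (adjusted p = 0.653, SE 0.26). The difference between them was not tested.

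Of the T cell exhaustion and activation list 5 of 12 measured members rose and 0 fell (median 0.48). Ctla4 codes for an inhibitory receptor of activated and regulatory T cells. It measured 140.04, 93.6, 86.3 and 144 CPM in mock libraries and 165 to 323 (median 251) after 1x20Gy, a log2 fold change of 1.06 (adjusted p = 0.00614, SE 0.21) with no overlap. Tox, a transcription factor of chronically stimulated T cells, went from 80.3, 46.7, 45.6 and 92.6 CPM to between 101 and 293 CPM (median 124, log2 fold change 1.16, SE 0.30, adjusted p = 0.0242), and Pdcd1, the gene of PD-1, had a log2 fold change of 0.95 (adjusted p = 0.0368, SE 0.27). Library 6 was the highest irradiated library for both. Icos (0.67) and Batf (0.59) also rose, whereas the inhibitory receptor genes Lag3 (log2 fold change -0.69, SE 0.36, adjusted p = 0.272) and Havcr2 (log2 fold change -0.12, SE 0.16, adjusted p = 0.703) did not pass. In the regulatory T cell list 4 of 10 measured genes rose and 0 fell: Ctla4 and Icos again, with Ikzf2 (0.63) and Ikzf4 (log2 fold change 0.96, SE 0.19, adjusted p = 0.00561), which code for the factors Helios and Eos. Foxp3, the gene that defines these cells, was low, at 7.35, 6.203, 5.85 and 9.47 CPM in mock libraries and 5.19 to 17.9 (median 12.02) after 1x20Gy, and its log2 fold change of 0.71 (adjusted p = 0.166, SE 0.30) did not pass. Il2ra, the gene of CD25, stood at a log2 fold change of 0.04 (adjusted p = 0.921, SE 0.19).

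Without mock library 3 the T cell list held 4 genes that passed, the exhaustion list 1 and the regulatory T cell list 2, and Pdcd1, Tox and Icos each lost their call with 3 or more of the libraries left out (highest adjusted p 0.139, 0.108 and 0.146). With the mean epithelial and fibroblast level in the fit, 0 genes of these 3 lists passed. Without irradiated libraries 2 and 5, which had the highest mitochondrial shares of their group, 8 regulatory T cell genes rose. With scaling to library size alone 2 exhaustion and 2 regulatory T cell genes rose. In the fit over all 31 libraries 2 T cell genes and 0 of the exhaustion and regulatory lists passed, with adjusted p-values of 0.0993 for Cd3e, 0.0605 for Cd28 and 0.07598 for Ctla4.

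Plasmacytoid dendritic cell genes rose in 5 of 10 measured members and fell in 0 (median 0.76). Siglech, a sialic acid binding receptor that marks these cells in mice (chr7:55768178-55778925, forward strand), stood at 12.6, 16.2, 5.02 and 11.3 CPM in mock libraries and 21.6 to 44.2 (median 29.8) after 1x20Gy. Its log2 fold change was 1.47 (adjusted p = 0.00313, SE 0.26), and the groups did not overlap. Ccr9, a chemokine receptor of these cells and of some T cells, went from 21.1, 25.6, 6.69 and 21.2 CPM to between 33.3 and 53.6 CPM (median 46.7), a log2 fold change of 1.23 (adjusted p = 0.0101, SE 0.27). Mock library 3 was the lowest for both genes, far below the other mock libraries for Ccr9. Smim5 (log2 fold change 1.62), Pacsin1 (0.91) and Runx2 (0.76) made up the rest. Tcf4, the transcription factor that keeps the lineage, had a log2 fold change of -0.40 (adjusted p = 0.0608, SE 0.12) and Bst2, an interferon-induced surface protein gene, 0.36 (adjusted p = 0.228, SE 0.18). Of conventional dendritic cell genes, Naaa (log2 fold change 0.58) was the 1 gene of 12 that rose in the type 1 list. Irf4 and Clec10a rose among 8 in the type 2 list, and Relb and Samsn1 among 13 in the mature list. In all 3 lists 0 were lower, and over all genes tested 4.22% rose and 3.83% fell. Xcr1, the receptor that defines type 1 cells, had a log2 fold change of 0.30 (adjusted p = 0.5796, SE 0.29), and Ccr7, the receptor that takes mature cells to lymph nodes, 0.16 (adjusted p = 0.756, SE 0.25). Clec10a stood at 34.3, 37.2, 36.8 and 33.3 CPM in mock libraries and 45.8 to 76.9 (median 56.6) after 1x20Gy (log2 fold change 0.72, SE 0.16, adjusted p = 0.0118), and Samsn1 at 97.4, 96.5, 86.3 and 114 and 132 to 187 (median 181, log2 fold change 0.78, SE 0.13, adjusted p = 0.00208), both without overlap. In the fit over all 31 libraries 0 of the plasmacytoid genes passed, with adjusted p-values of 0.2804 for Siglech, 0.3395 for Ccr9 and 0.1005 for Smim5. Within the 11 libraries Siglech, Ccr9, Smim5, Clec10a and Samsn1 passed with each library left out in turn, but Naaa lost its call in 7 of the 11 leave-outs (highest adjusted p 0.124) and Irf4 and Relb without mock library 3 (0.0526 and 0.0561). With the mean epithelial and fibroblast level in the fit, 2 plasmacytoid genes passed, and without irradiated libraries 2 and 5, 8 were higher and 1 lower.

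The neutrophil list was mixed, with 5 of 12 measured members higher and 1 lower (median 1.11). S100a8 and S100a9 code for the 2 chains of calprotectin, an abundant protein of neutrophils and inflammatory monocytes. S100a8 measured 48.4, 17.8, 47.2 and 46.2 CPM in mock libraries and 45.3 to 135 (median 111) after 1x20Gy, a log2 fold change of 1.30 (adjusted p = 0.0143, SE 0.30). Irradiated library 1 lay within the mock range and the other 6 above it. Mmp9, the gelatinase stored in neutrophil granules and made by other cells too, rose from 1.23, 1.08, 1.25 and 4.16 CPM to between 5.54 and 13.1 CPM (median 10.8, log2 fold change 2.34, SE 0.37, adjusted p = 0.00171). Hdc, which makes histamine, rose from 16.2, 18.6, 25.5 and 31.4 CPM to between 39.8 and 109.6 CPM (median 77.2, log2 fold change 1.73, SE 0.25, adjusted p = 0.00124), and neither gene's groups overlapped. S100a9 (log2 fold change 1.68) and G0s2 (1.68) rose too. Lcn2, the siderophore-binding protein lipocalin of neutrophil granules and of epithelium, fell instead, from 57.9, 48.3, 71.3 and 46.4 CPM to between 11.2 and 46.9 CPM (median 15.97, log2 fold change -1.38, SE 0.29, adjusted p = 0.009095), with irradiated library 7 at the level of the lowest mock library. The markers that set neutrophils apart were scarce. Ly6g had 0 counts in all 11 libraries, where 3 counts would be 0.712 to 1.14 CPM before scaling. Cxcr2 was below the filter on low counts with 100 counts in all, and so was not tested. Its counts were 4, 24, 6, 4, 32, 2 and 21 in the irradiated libraries and 1, 3, 0 and 3 in the mock libraries. Whether the genes that rose came from neutrophils was not tested. G0s2 lost its call in 5 of the 11 leave-outs (highest adjusted p 0.1104). With the mean epithelial and fibroblast level in the fit 2 neutrophil genes passed. In the fit over all 31 libraries S100a8, S100a9, G0s2 and Lcn2 lost their calls (0.326 for S100a8 and 0.0576 for Lcn2).

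Other blood-derived cells showed few changes, beside 8.05% of all genes tested that passed. Of 15 measured monocyte genes Plac8 alone passed (log2 fold change 0.83, SE 0.20, adjusted p = 0.0162), with 182, 191, 285 and 260.3 CPM in mock libraries and 227 to 501 (median 424) after 1x20Gy. It lost its call without mock library 1 or 2 (highest adjusted p 0.0598). The classical monocyte genes Ly6c2 (log2 fold change 0.48, SE 0.24, adjusted p = 0.246) and Ccr2 (log2 fold change 0.22, SE 0.17, adjusted p = 0.468) did not pass. B cells were hardly present: 2 of 12 B cell genes passed the filter, and Ms4a1, the gene of CD20, had 40 counts over all 11 libraries. Antibody genes varied between libraries of 1 group more than between groups. Ighg2c ran from 3.51 to 218 CPM in the mock libraries and 12.6 to 91.95 (median 25.3) after 1x20Gy, and the log2 fold change of -0.79 (adjusted p = 0.594, SE 0.78) did not pass. In the plasma cell list Irf4 alone rose among 11 (log2 fold change 1.11, SE 0.24, adjusted p = 0.00959); this factor is also made by activated T cells and dendritic cells. Of 8 measured mast cell, basophil and eosinophil genes 0 passed in edgeR, DESeq2 or voom (1 at an unadjusted p below 0.05), with Cpa3, a mast cell protease, at a log2 fold change of 0.80 (adjusted p = 0.257, SE 0.41).

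Macrophage genes fell. In the macrophage identity list 7 of 19 measured members fell and 1 rose, with a median of -0.66. Csf1r, the receptor for the growth factor that keeps macrophages alive, stood at 235, 285, 435 and 287 CPM in mock libraries and 171 to 235 (median 191) after 1x20Gy, a log2 fold change of -0.66 (adjusted p = 0.0121, SE 0.15). Lyz2, the gene of lysozyme, fell from 1282, 1438, 2195 and 1405 CPM to between 409 and 892 CPM (median 741, log2 fold change -1.21, SE 0.19, adjusted p = 0.00171), and Stab1, a scavenger receptor gene, from 89.5, 109, 135 and 90.5 CPM to between 38.2 and 63.3 CPM (median 52.3, log2 fold change -1.08, SE 0.16, adjusted p = 0.00123). The groups did not overlap for any of these 3 genes, as for 439 genes (3.97% of those tested) in this direction. For Csf1r the groups met at nearly the same level. Cd14 (log2 fold change -0.80), which binds bacterial lipopolysaccharide, fell, as did C1qb and C1qc, subunit genes of complement C1q. Maf, a transcription factor of macrophages and of some T cells, rose (log2 fold change 0.74, SE 0.19, adjusted p = 0.02198). Emr1, the gene of the macrophage marker F4/80, had a log2 fold change of -0.30 (adjusted p = 0.503, SE 0.24), with irradiated library 3 highest, and the mannose receptor gene Mrc1 had -0.62 (adjusted p = 0.112, SE 0.23). Among 12 measured genes of alternatively activated macrophages Clec10a rose and 0 fell, with Arg1, the gene of arginase, at a log2 fold change of -0.36 (adjusted p = 0.482, SE 0.28).

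The lipid and phagocytosis list, which holds genes of macrophages that take up dead cells and lipid, fell in 11 of 16 measured members and rose in 0 (median -0.75). Gpnmb, a glycoprotein of lysosome-laden macrophages (chr6:49036546-49070929, forward strand), showed the largest difference. It measured 108, 76.3, 154 and 155 CPM in mock libraries and 16.8 to 37.4 (median 23.7) after 1x20Gy, a log2 fold change of -2.21 (adjusted p = 6.40e-05, SE 0.21). The highest irradiated library was below the lowest mock library by a wide margin. Trem2, a receptor for lipids and apoptotic cells (chr17:48346401-48354147, forward strand), went from 48.7, 47.5, 81.7 and 69.5 CPM to between 18.3 and 42.6 CPM (median 22.5, log2 fold change -1.24, SE 0.21, adjusted p = 0.002696). Fabp5, a fatty acid carrier gene, went from 47.5, 49.4, 41.4 and 48.04 CPM to between 12.7 and 33.1 CPM (median 16.2, log2 fold change -1.27, SE 0.23, adjusted p = 0.00373), and Apoe, which carries lipid out of the cell, from 2044, 2375, 2819.8 and 2358 CPM to between 1066 and 1585 CPM (median 1194, log2 fold change -0.95, SE 0.13, adjusted p = 0.000702). All 3 were separate between the groups. Plin2 (log2 fold change -1.08), which coats lipid droplets, Abca1 (-0.98), a cholesterol exporter, Lpl (-0.86), Lgals3 (-0.87), Apoc2 (-0.65), Cd63 (-0.64) and the apoptotic cell receptor gene Axl (-0.46) fell too. Spp1 (log2 fold change -0.47, SE 0.20, adjusted p = 0.158), Cd9, Cd36, Abcg1 and Cstb did not pass. Of 17 measured genes of cholesterol synthesis Srebf2, the gene of their main regulator, alone passed, with a log2 fold change of 0.63 (adjusted p = 0.0277, SE 0.17), with its call lost in 6 of 11 leave-outs.

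Lysosomal genes fell in 9 of 22 measured members and rose in 0 (median -0.33). Ctsd, the protease cathepsin D (chr7:142375911-142388038, reverse strand), stood at 2081, 1649, 2199 and 2013 CPM in mock libraries and 1051 to 1386 (median 1169) after 1x20Gy, a log2 fold change of -0.77 (adjusted p = 0.00139, SE 0.11). Ctsb, cathepsin B, went from 679, 714, 1175 and 878 CPM to between 362 and 608 CPM (median 466, log2 fold change -0.83, SE 0.16, adjusted p = 0.00492). Neither gene's groups overlapped. Ctsc (log2 fold change -0.73), Lipa (-0.68), Psap (-0.55), Gusb (-0.54) and Lamp1 (-0.41) fell as well, whereas Ctsl (-0.03), Npc2 (-0.12) and Tfeb (0.16), the last coding for a master regulator of lysosomal genes, did not pass. Lamp1 lost its call in 7 of the 11 leave-outs. It also lost it in the fit over all 31 libraries and with the share of reads outside genes or the mean epithelial and fibroblast level as a term.

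TFEB and related factors bind the letters CACGTG in lysosomal promoters, so the 250 bases before the start of Lamp1, a lysosomal membrane protein gene, are shown with that motif in capitals (chr8:13158911-13159160, forward strand, GRCm38.p6, RefSeq). CACGTG reads the same on both strands.
Lamp1: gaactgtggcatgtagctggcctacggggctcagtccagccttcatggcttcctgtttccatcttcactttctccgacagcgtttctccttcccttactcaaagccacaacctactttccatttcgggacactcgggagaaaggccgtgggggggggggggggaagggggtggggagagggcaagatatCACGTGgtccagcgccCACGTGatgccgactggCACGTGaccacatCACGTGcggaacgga
The motif stood in such a window in 2 of 6 genes of the lysosome list that fell and have a window (33.3%), in 2 of 10 that did not fall (20%), in 1 of 9 lipid and phagocytosis genes that fell (11.11%) and in 0 of 3 that did not. Of the genes tested that have a window 10.07% hold it, and of all 32851 windows 6.02%. A match is a description and neither a binding site nor a cause.

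Iron and complement genes of macrophages fell in part. Trf, which codes for the iron carrier transferrin, went from 609.8, 613, 897 and 529 CPM in mock libraries to between 168 and 359 CPM (median 199.8) after 1x20Gy (log2 fold change -1.56, SE 0.20, adjusted p = 0.000702). Slc40a1, the iron exporter ferroportin, was low but separate, at 6.74, 4.58, 5.02 and 6.47 CPM against 1.28 to 2.89 CPM (median 1.94, log2 fold change -1.54, SE 0.27, adjusted p = 0.00307). With Ftl1, the ferritin light chain (log2 fold change -0.68, SE 0.15, adjusted p = 0.01003), they were the 3 of 12 measured iron genes that fell, and 0 rose. Hmox1, which breaks down haem, had a log2 fold change of -0.43 (adjusted p = 0.124, SE 0.17). In the complement list 4 of 14 measured genes fell and 0 rose: C1qc (log2 fold change -0.75, SE 0.15, adjusted p = 0.00679), C1qb (log2 fold change -0.74, SE 0.16, adjusted p = 0.0121), C3 (log2 fold change -0.73, SE 0.15, adjusted p = 0.00808) and C4b (-0.65). C3 is the central complement component, and its 159, 198, 204 and 141 CPM in mock libraries lay above the 80.4 to 134 (median 104) CPM after 1x20Gy in every library.

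Mock library 3 mattered to these counts too. Without mock library 3, 5 macrophage identity genes, 8 lipid, 4 lysosomal, 2 iron and 2 complement genes fell, and Csf1r (0.0669), C1qb (0.06899) and Ftl1 (0.0562) lost their calls, while Gpnmb, Trem2, Fabp5, Apoe, Lyz2, Stab1, Ctsd, Ctsb, Trf, Slc40a1, C1qc and C3 passed in all 11 leave-outs. Maf lost its call without mock library 3 or 4 (highest 0.101). With the mean epithelial and fibroblast level in the fit, 3, 5, 2, 1 and 0 genes of the macrophage, lipid, lysosome, iron and complement lists fell. Trem2, Ctsb, Slc40a1, C1qc and C3 then lost their calls (adjusted p 0.0781, 0.1201, 0.0827, 0.0833 and 0.05499). In the fit over all 31 libraries 5, 7, 3, 1 and 0 genes of these lists fell, and with the share of reads outside genes as a term Csf1r, Ctsb, C1qc, Ftl1 and Maf lost their calls (0.126, 0.05604, 0.0723, 0.0799 and 0.121). With scaling to library size alone 14 macrophage, 15 lysosomal and 6 iron genes fell, and without irradiated libraries 2 and 5, 13 macrophage genes.

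**Figure D3:**
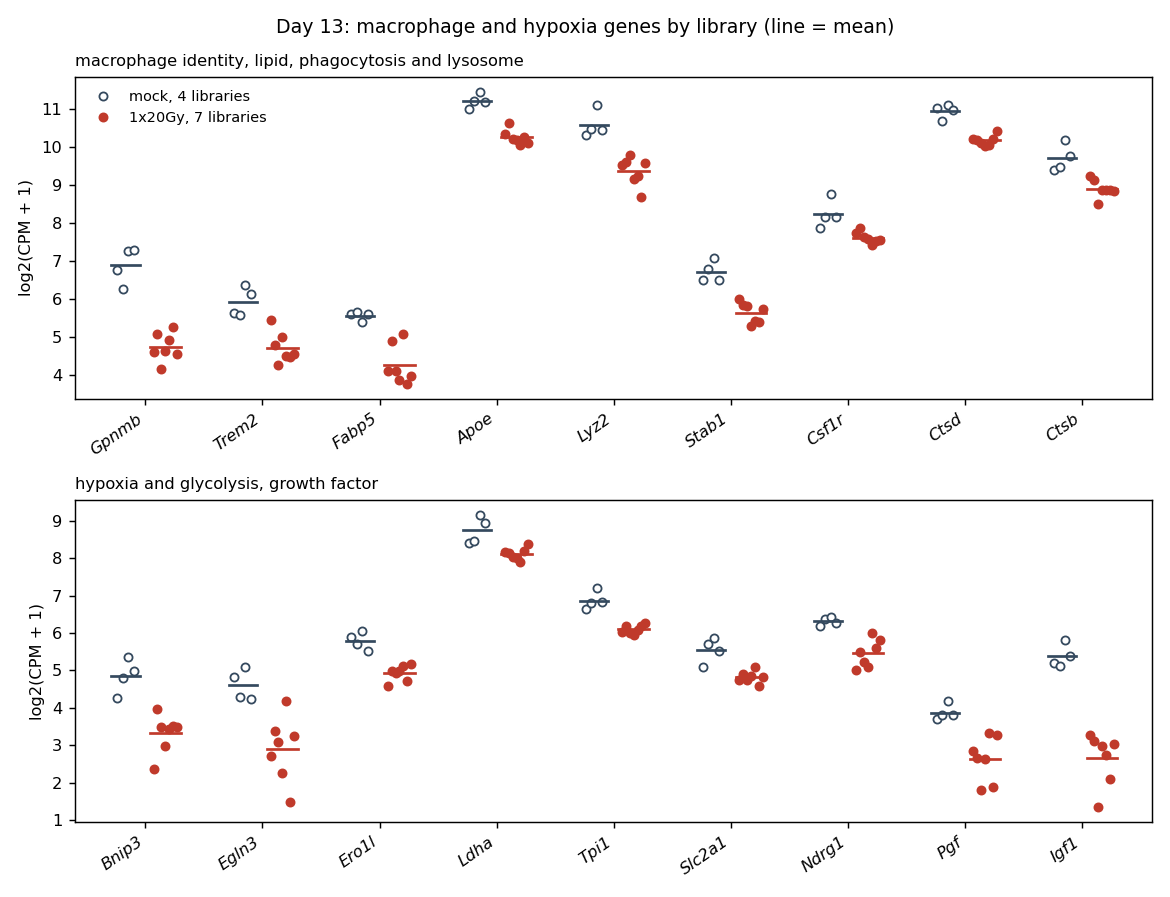
Level of macrophage, lipid and lysosomal genes (upper panel) and of hypoxia, glycolysis and growth factor genes (lower panel) as log2(CPM + 1), with a point per library, open for 1x0Gy (mock, 4) and filled for 1x20Gy (7), and a line at each group's mean. Gpnmb, Lyz2, Ctsd, Bnip3 and Igf1 lie lower in every irradiated library than in any mock library.

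Genes of the hypoxia response and of glycolysis fell together: 14 of 25 measured members fell and 0 rose, with a median of -0.59. Egln3, an oxygen sensor that marks HIF for destruction, stood at 27.3, 18.6, 33.03 and 17.8 CPM in mock libraries and 1.81 to 17.1 (median 7.46) after 1x20Gy, a log2 fold change of -1.68 (adjusted p = 0.00938, SE 0.36). Bnip3, which targets mitochondria for removal (chr7:138890836-138909519, reverse strand), went from 18.4, 26.7, 40.1 and 30.5 CPM to between 4.15 and 14.6 CPM (median 10.2, log2 fold change -1.60, SE 0.25, adjusted p = 0.00171). Pgf, the angiogenic placental growth factor, went from 11.95, 12.9, 17.1 and 13.2 CPM to between 2.49 and 8.98 CPM (median 5.37, log2 fold change -1.29, SE 0.29, adjusted p = 0.0117). All 3 were lower in every irradiated library than in any mock library. Ankrd37 (log2 fold change -1.17), Car9 (-0.94), which codes for carbonic anhydrase, Ero1l (-0.89) and Ndrg1 (-0.83) fell too. Slc2a1, the glucose transporter GLUT1, fell from 33.4, 51.5, 57.1 and 44.8 CPM to between 22.9 and 33.1 CPM (median 27.3, log2 fold change -0.78, SE 0.15, adjusted p = 0.005304). The glycolytic enzyme genes Tpi1 (log2 fold change -0.78), Gapdh (-0.67), Ldha (-0.65), Pfkl (-0.59) and Aldoa (-0.42) fell, as did Pdk1 (-0.64), which keeps pyruvate out of mitochondria. Vegfa (log2 fold change -0.30, SE 0.20, adjusted p = 0.382), Hk2 (-0.30), Pgk1 (-0.31), Eno1 (-0.02) and Hif1a itself (log2 fold change 0.30, SE 0.11, adjusted p = 0.121) did not pass. Slc2a3, a second glucose transporter, had a log2 fold change of 0.72 (adjusted p = 0.0737, SE 0.24). Without mock library 3, 5 of the 14 passed and Egln3 and Pgf came to adjusted p-values of 0.0561 and 0.0627, whereas Bnip3 and Slc2a1 passed in all leave-outs. With the mean epithelial and fibroblast level in the fit 4 passed.

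HIF-1 binds the core letters ACGTG, with GCGTG as a known variant, so the windows before the start of 3 genes that fell are shown, with ACGTG on either strand in capitals and GCGTG left unmarked (GRCm38.p6, RefSeq). Ldha is at chr7:46845554-46845803 on the forward strand, Bnip3 at chr7:138909520-138909756 and Egln3 at chr12:54203875-54204124, both on the reverse strand.
Ldha: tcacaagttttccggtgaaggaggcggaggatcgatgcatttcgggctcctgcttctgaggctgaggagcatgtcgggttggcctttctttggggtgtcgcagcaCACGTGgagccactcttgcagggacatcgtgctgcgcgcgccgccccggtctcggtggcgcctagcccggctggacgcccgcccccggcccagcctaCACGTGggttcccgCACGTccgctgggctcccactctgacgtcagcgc
Bnip3: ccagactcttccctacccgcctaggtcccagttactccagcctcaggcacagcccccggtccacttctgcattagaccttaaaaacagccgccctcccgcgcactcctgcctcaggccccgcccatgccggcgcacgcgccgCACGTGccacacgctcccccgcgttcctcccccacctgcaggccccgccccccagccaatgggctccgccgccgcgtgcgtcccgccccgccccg
Egln3: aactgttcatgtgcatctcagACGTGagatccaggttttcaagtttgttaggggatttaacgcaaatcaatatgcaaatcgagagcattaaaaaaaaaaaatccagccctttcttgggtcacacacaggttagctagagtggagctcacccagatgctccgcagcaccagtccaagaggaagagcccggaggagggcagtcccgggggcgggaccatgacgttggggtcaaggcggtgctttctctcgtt
Ldha holds 5 matches to ACGTG, Bnip3 2 and Egln3 1, where a match counts once per strand, and every CACGTG holds ACGTG on both strands. ACGTG stood before the start of 8 of the 13 genes of this list that fell and have a window (61.54%) and of 8 of 10 that did not fall (80%), beside 25.36% of all genes tested that have a window. For GCGTG it was 9 of 13 (69.23%) and 5 of 10 (50%), beside 50.82%. Matches describe the letters only and are neither sites nor causes.

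Genes of stromal cells fell. In the fibroblast and matrix list 9 of 17 members passed the filter, of which 7 fell and 0 rose (median -1.76). Their summed level was 22.6 to 68.2 CPM after 1x20Gy and 158 to 251 CPM after 1x0Gy, with no overlap. Mgp, an inhibitor of calcification made by stromal cells (chr6:136872435-136875823, reverse strand), went from 68.03, 63.6, 147 and 79.2 CPM to between 1.55 and 32.7 CPM (median 7.02), a log2 fold change of -3.46 (adjusted p = 0.00171, SE 0.53). Irradiated library 5 was its highest and still below the lowest mock library. Postn, a matrix protein gene of activated fibroblasts, stood at 11.03, 9.98, 7.32 and 4.62 CPM against 0.256 to 3.42 CPM (median 1.21, log2 fold change -2.40, SE 0.41, adjusted p = 0.00268), and the collagenase gene Mmp2 at 24.5, 28.6, 36.4 and 25.2 CPM against 4.52 to 11.5 CPM (median 7.52, log2 fold change -1.84, SE 0.22, adjusted p = 0.000476). Both were also separate. Col1a2 (-1.39), Col3a1 (-1.72), Sparc (-1.84) and Bgn (-1.76) fell, Col1a1 (log2 fold change -0.91, SE 0.48, adjusted p = 0.275) and Dcn (-0.18) did not pass, and Pdgfra, the fibroblast receptor gene, had 8 counts in all. Col1a2, Col3a1 and Bgn lost their calls in 9, 5 and 2 of the 11 leave-outs, whereas Mgp, Postn, Mmp2 and Sparc passed in all. Over the leave-outs 4 to 7 genes of the list fell. The fibroblast genes are levels within a CD45.2 sort. Their part in the other results was not tested beyond the fits with the mean epithelial and fibroblast level.

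Of 10 measured matrix proteases and their inhibitors 5 fell and 1 rose. Mmp12, the elastase of macrophages (chr9:7344381-7369499, forward strand), went from 78.1, 114, 95.1 and 79.9 CPM in mock libraries to between 18.3 and 41.6 CPM (median 29.5) after 1x20Gy (log2 fold change -1.63, SE 0.22, adjusted p = 0.000702). Timp3, a metalloproteinase inhibitor gene, went from 12.9, 17.5, 13.4 and 10.4 CPM to between 3.73 and 6.23 CPM (median 5.12, log2 fold change -1.45, SE 0.20, adjusted p = 0.000959). Neither gene's groups overlapped, and Timp2 (log2 fold change -1.03) and Mmp13 (-1.21) fell with them and Mmp2. Mmp9 was the 1 gene that rose.

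Epithelial genes moved in both directions. Of 12 measured members of the epithelial and tumour cell list 4 rose and 1 fell (median 0.80), with a summed level of 818 to 2402 CPM after 1x20Gy and 734 to 991 CPM after 1x0Gy. Cldn3, a tight junction protein gene, stood at 20.2, 21.03, 21.7 and 28.6 CPM in mock libraries and 35.1 to 140.2 (median 59.7) after 1x20Gy (log2 fold change 1.67, SE 0.34, adjusted p = 0.00781). The related Cldn4 went from 33.1, 37.8, 42.4 and 52.7 CPM to between 61.4 and 258 CPM (median 84.9, log2 fold change 1.55, SE 0.36, adjusted p = 0.0157), and irradiated library 1 was the highest for both. The keratin genes Krt7 (log2 fold change 1.40, SE 0.34, adjusted p = 0.0178) and Krt19 (1.27) rose, whereas the basal keratin gene Krt14 fell from 10.1, 13.5, 12.8 and 9.6999 CPM to between 1.51 and 5.78 CPM (median 4.35, log2 fold change -1.53, SE 0.27, adjusted p = 0.00354). Epcam, the pan-epithelial surface marker, had a log2 fold change of -0.26 (adjusted p = 0.4799, SE 0.20). Without mock library 3, 2 epithelial genes rose, and Cldn4 (0.0621) and Krt7 (0.0614) each lost their call without 2 of the mock libraries. Among endothelial genes 2 of 6 measured rose and 0 fell. Pecam1, the gene of CD31, which leukocytes also carry, had 34.01, 42.3, 45.6 and 49.4 CPM in mock libraries and 49.1 to 129.9 (median 72.9) after 1x20Gy (log2 fold change 0.96, SE 0.21, adjusted p = 0.0119), and irradiated library 1 lay just below the highest mock library. Vwf, von Willebrand factor, had a log2 fold change of 1.51 (adjusted p = 0.0289, SE 0.40) but lost its call in 5 leave-outs (highest adjusted p 0.0961), and Cdh5, the endothelial cadherin gene, had 1.13 (adjusted p = 0.117, SE 0.43). Tek had 0 counts and Cldn5 3 in all 11 libraries. Of adipose (1 measured), erythroid (2) and platelet (2) genes 0 passed in edgeR, DESeq2 or voom, and 0 had an unadjusted p below 0.05.

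Most of the largest falls were in genes outside the lists. Wif1, a secreted inhibitor of Wnt signalling (chr10:121033960-121100650, forward strand), measured 21.4, 16.2, 28.8 and 14.8 CPM in mock libraries and at most 2.86 CPM after 1x20Gy, with library 3 at 0. Its fitted log2 fold change of -4.19 (adjusted p = 6.40e-05, SE 0.39) rests on these low irradiated counts. Igf1, insulin-like growth factor 1, which macrophages and stromal cells secrete (chr10:87858265-87937042, forward strand), went from 35.5, 33.98, 55.4 and 40.9 CPM to between 1.55 and 8.65 CPM (median 6.94, log2 fold change -2.81, SE 0.27, adjusted p = 6.40e-05). The lowest mock library was well above the highest irradiated one for both. Pigr, the epithelial receptor that carries IgA, fell from 27.3, 12.1, 36.6 and 17.6 CPM to between 0.904 and 7.35 CPM (median 3.39, log2 fold change -2.75, SE 0.37, adjusted p = 0.000702). Krt15, a basal keratin gene, fell from 67.4, 60.9, 134 and 84.1 CPM to between 5.28 and 24.7 CPM (median 10.7, log2 fold change -2.63, SE 0.32, adjusted p = 0.000476), and Ehf, an epithelial transcription factor gene, from 79.4, 43.96, 55.6 and 38.6 CPM to between 5.42 and 22.5 CPM (median 12.1, log2 fold change -2.20, SE 0.29, adjusted p = 0.000702). The groups overlapped for none of these genes. Smoc1 (log2 fold change -3.07), Foxc1 (-2.78), Pdzrn3 (-2.70), Stac2 (-2.35) and Ppap2b (-2.13) were also among the 15 largest falls, and so were Tbx15 (-2.43) and Dcpp3 (-3.42), each with 1 irradiated library at 0. All 15, Mgp and Gpnmb included, passed in all 11 leave-outs.

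Among the largest rises, Grb14, an adaptor that binds the insulin receptor (chr2:64912476-65024987, reverse strand), stood at 1.84, 1.35, 0.418 and 1.39 CPM in mock libraries and 3.15 to 21.1 (median 6.84) after 1x20Gy (log2 fold change 2.89, SE 0.57, adjusted p = 0.00646). Upk3a, a uroplakin gene of bladder lining, went from 1.53, 2.16, 3.14 and 3.002 CPM to between 4.598 and 31.5 CPM (median 9.54, log2 fold change 2.51, SE 0.52, adjusted p = 0.008103), and Msc, the transcription factor musculin, from 1.84, 0.809, 1.67 and 1.85 CPM to between 3.63 and 16.96 CPM (median 7.52, log2 fold change 2.46, SE 0.48, adjusted p = 0.00561). All 3 were separate, and irradiated library 1 was the highest for each. Adamts14, a procollagen protease, went from 2.14, 1.35, 1.88 and 2.77 CPM to between 4.899 and 16.6 CPM (median 11.2, log2 fold change 2.36, SE 0.40, adjusted p = 0.002795), and Sgms2, a sphingomyelin synthase gene, from 2.76, 5.39, 5.23 and 3.002 CPM to between 9.798 and 30.7 CPM (median 13.4, log2 fold change 1.93, SE 0.35, adjusted p = 0.00354). Prom1, the gene of CD133, had a log2 fold change of 2.08 (adjusted p = 0.00938, SE 0.44), and Wnt5a, a Wnt ligand, 2.000 (adjusted p = 0.00722, SE 0.40). Kcnh1, a potassium channel gene (log2 fold change 2.65), Styk1 (1.94), Prr7 (1.85) and Tmprss2 (1.82) lost their calls without mock library 3 (Kcnh1 also without mock library 1 or 2 and Styk1 without mock library 1), with highest adjusted p-values of 0.115, 0.0756, 0.0575 and 0.0509. AA474408, a transcript of unsettled coding status, was at 80.6, 60.9, 1.25 and 10.6 CPM in mock libraries and 109 to 385 (median 190.4) after 1x20Gy (log2 fold change 2.41, SE 0.63, adjusted p = 0.0277). It lost its call without irradiated library 4 or mock library 4 (highest adjusted p 0.07702) and in the fit over all 31 libraries (0.116). Its mock libraries stood in the same order as their RP23-81C12.3 shares.

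**Figure D4:**
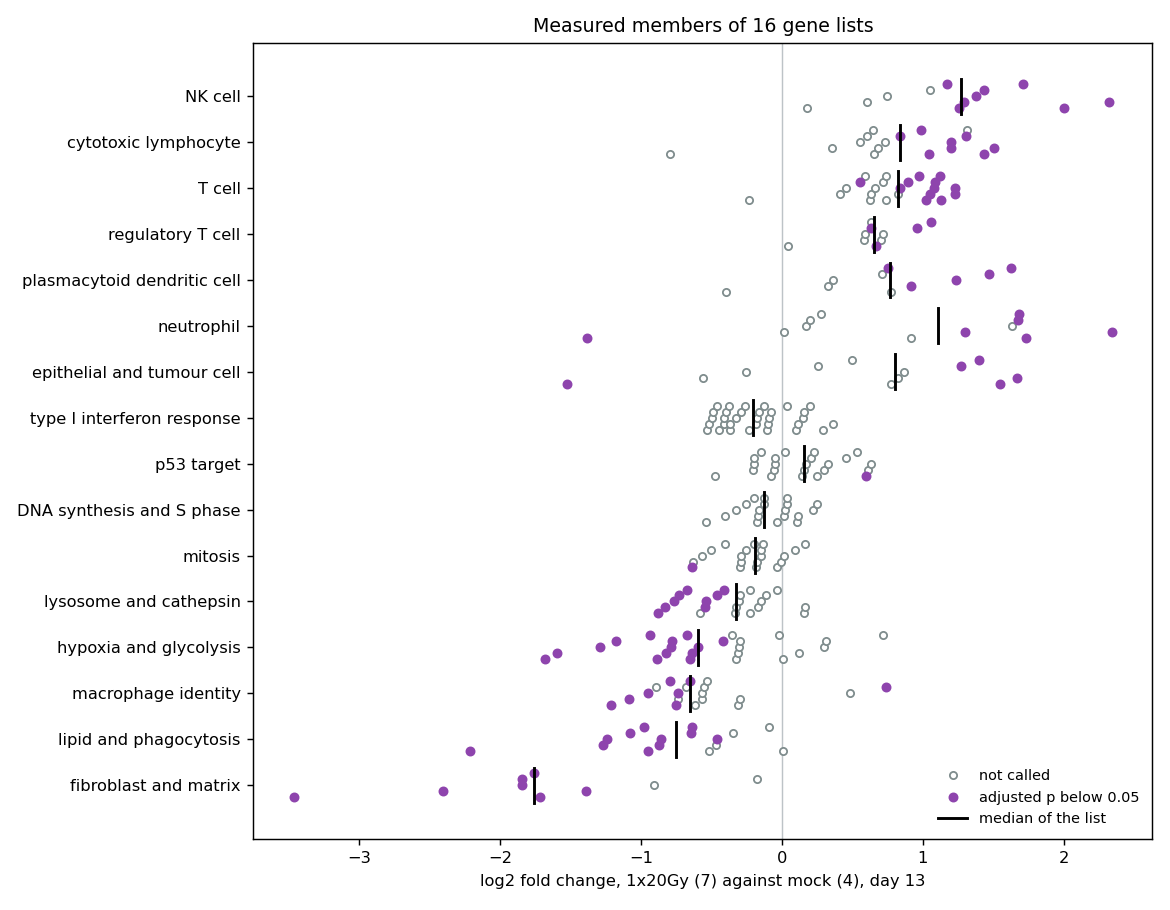
Log2 fold change (x axis), 1x20Gy minus 1x0Gy, of each measured member of 16 gene lists, 1 row per list, with members at an adjusted p below 0.05 filled, others open and the list median as a bar. The medians of the NK, T cell and plasmacytoid dendritic cell rows lie right of 0 and those of the lipid, hypoxia and fibroblast rows left of it, while the type I interferon and S phase rows hold 0 filled points.

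Lists of interferon and antigen presentation genes differed in how many members passed, beside 8.05% of all genes tested (4.22% higher and 3.83% lower). Of 32 measured type I interferon response genes 0 passed in edgeR's test (median -0.21), and 8 had a positive log2 fold change. At an unadjusted p below 0.05 stood 11, beside 2583 of all 11071 genes tested, and 1 was lower in DESeq2 and in limma's voom fit. Isg15, an interferon-induced ubiquitin-like protein gene, stood at 399, 449.8, 395 and 503 CPM in mock libraries and 300.4 to 511 (median 453) after 1x20Gy (log2 fold change 0.04, SE 0.14, adjusted p = 0.913), and Ifit1, which blocks translation of viral RNA, had a log2 fold change of 0.15 (adjusted p = 0.629, SE 0.16). Ifnb1, the gene of interferon beta, had 8 counts in all. The list's count depended on settings: 10 members were lower with scaling to library size alone, and 9 lower and 1 higher without irradiated libraries 2 and 5. In the interferon gamma list 4 of 17 measured genes rose and 1 fell. Gbp5, a guanylate-binding protein gene, went from 45.04, 48.3, 29.5 and 33.9 CPM to between 60.4 and 93.1 CPM (median 65.4, log2 fold change 0.90, SE 0.17, adjusted p = 0.00512) without overlap. Socs1 (log2 fold change 1.01, SE 0.28, adjusted p = 0.03801), a feedback inhibitor of cytokine signalling, Cd274 (log2 fold change 0.68, SE 0.18, adjusted p = 0.0266), the gene of PD-L1, and Irf1 (0.51) rose, and Iigp1 fell (log2 fold change -0.57, SE 0.16, adjusted p = 0.0411). Cxcl9, a chemokine induced by interferon gamma, had a log2 fold change of -0.44 (adjusted p = 0.134, SE 0.17), and Gbp2 -0.10 (adjusted p = 0.841, SE 0.24). Gbp5 passed in all 11 leave-outs, whereas Socs1, Cd274 and Iigp1 lost their calls in 7, 4 and 9 of them, and without mock library 3, 1 gene of the list rose and 0 fell.

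Among MHC class I genes 1 of 22 measured rose: Tap2, a subunit of the peptide transporter, at 220.01, 133, 159 and 199.5 CPM in mock libraries and 164 to 706 (median 378) after 1x20Gy (log2 fold change 1.17, SE 0.30, adjusted p = 0.0262), with the call lost in 3 leave-outs (highest adjusted p 0.0991). H2-K1, a classical class I heavy chain gene, had a log2 fold change of 0.11 (adjusted p = 0.692, SE 0.14). Of 13 class II genes H2-Aa (log2 fold change -0.50, SE 0.14, adjusted p = 0.0399) and Ifi30 (log2 fold change -0.61, SE 0.13, adjusted p = 0.0118), a thiol reductase of antigen processing, fell and 0 rose, and H2-Ab1, the partner chain of H2-Aa, had a log2 fold change of -0.42 (adjusted p = 0.0595, SE 0.13). H2-Aa lost its call in 7 leave-outs and Ifi30 without mock library 3 (0.163 and 0.06899). H2 genes have close copies, so their values share the limit given for Klra genes. Of 10 DNA sensing genes Enpp1, which breaks down the messenger cGAMP, fell (log2 fold change -0.60, SE 0.14, adjusted p = 0.0148), and Tmem173, the gene of STING, had a log2 fold change of 0.03 (adjusted p = 0.891, SE 0.11). Enpp1 lost its call without mock library 1 or 3 (0.0682). In the checkpoint and costimulatory ligand list Cd274 alone passed of 10 measured.

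Few damage and division genes passed, beside 8.05% of all genes tested. Bax, a pore-forming death protein gene, was the 1 of 23 measured p53 targets that rose (log2 fold change 0.60, SE 0.17, adjusted p = 0.0354), and it lost its call in 9 of 11 leave-outs (highest adjusted p 0.124). Cdkn1a, the cell cycle inhibitor p21, stood at 164, 276, 145 and 175 CPM in mock libraries and 165 to 269 (median 211) after 1x20Gy (log2 fold change 0.17, SE 0.17, adjusted p = 0.598), and Mdm2, which holds p53 in check, had a log2 fold change of -0.05 (adjusted p = 0.8799, SE 0.16). Of 19 S phase genes 0 passed in edgeR, DESeq2 or voom (median -0.13), 1 having an unadjusted p below 0.05, with Pcna, the polymerase clamp, at a log2 fold change of 0.22 (adjusted p = 0.419, SE 0.15). Cdk1, the mitotic kinase, was the 1 of 20 mitosis genes that fell, from 58.5, 61.2, 81.7 and 64.4 CPM to between 30.1 and 50.05 CPM (median 44.9, log2 fold change -0.64, SE 0.15, adjusted p = 0.0139). Mki67, the proliferation marker Ki-67, had a log2 fold change of -0.40 (adjusted p = 0.476, SE 0.31), with irradiated library 5 highest at 231 CPM. Cdk1 lost its call without mock library 3 (0.0793), and 4 mitosis genes were lower without irradiated libraries 2 and 5.

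Early response and stress genes showed a few opposite changes. Egr1 and Egr2 code for zinc finger factors induced by growth factor signals. Egr1 went from 1215, 786, 1167 and 823 CPM in mock libraries to between 397 and 599.7 CPM (median 491) after 1x20Gy (log2 fold change -1.01, SE 0.14, adjusted p = 0.000908), and Egr2 from 34.01, 22.4, 77.3 and 34.6 CPM to between 10.2 and 18.7 CPM (median 15.5, log2 fold change -1.44, SE 0.27, adjusted p = 0.00419). Hspa1a, the inducible heat shock protein 70, went from 36.8, 31.6, 37.001 and 30.9 CPM to between 12.28 and 21.1 CPM (median 16.96, log2 fold change -1.002, SE 0.16, adjusted p = 0.00181). These 3 fell without overlap among 20 measured members and Junb, an AP-1 subunit, rose (log2 fold change 0.94, SE 0.23, adjusted p = 0.0206), while Fos had a log2 fold change of -0.46 (adjusted p = 0.127, SE 0.18). Ier5l, an early response gene outside the list, rose from 59.8, 39.4, 40.6 and 49.4 CPM to between 67.4 and 186 CPM (median 91.96, log2 fold change 1.19, SE 0.25, adjusted p = 0.009095). Of 10 genes of the integrated stress response Atf4 (log2 fold change 0.44, SE 0.11, adjusted p = 0.0226) and Ppp1r15a (log2 fold change 0.55, SE 0.14, adjusted p = 0.02003) rose and Trib3 (log2 fold change -0.89, SE 0.24, adjusted p = 0.0327) fell. Egr2 lost its call with the share of reads outside genes as a term (0.114), and Junb lost its call without mock library 3 (0.0903), as did Atf4, Ppp1r15a and Trib3 (highest 0.0926, 0.0785 and 0.178).

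Some cytokine, chemokine receptor and coagulation genes passed, where 4.22% of all genes tested rose and 3.83% fell. Of 14 measured inflammatory cytokine genes Csf1, the macrophage growth factor, rose (log2 fold change 1.003, SE 0.25, adjusted p = 0.0219) and Il1a, interleukin 1 alpha, fell. Il1a stood at 17.8, 24.8, 38.05 and 28.4 CPM in mock libraries and 1.81 to 13.6 (median 9.34) after 1x20Gy (log2 fold change -1.77, SE 0.37, adjusted p = 0.009095), without overlap. Il1b, among the most abundant cytokine genes here, had 1539, 2407, 2588 and 1739 CPM and 1533 to 2476 CPM (median 1794, log2 fold change -0.17, SE 0.17, adjusted p = 0.589), and Tnf a log2 fold change of 0.08 (adjusted p = 0.875, SE 0.22). Ccl5 was the 1 of 19 chemokine genes that rose, and 0 fell, with Ccl2, which draws monocytes, at a log2 fold change of 0.21 (adjusted p = 0.7696, SE 0.34). Of 14 measured chemokine receptor genes Ccr9 and Cxcr6 (log2 fold change 0.78, SE 0.20, adjusted p = 0.0258), a receptor of tissue-resident lymphocytes, rose, and Cxcr3, the receptor for Cxcl9, had a log2 fold change of 0.96 (adjusted p = 0.0519, SE 0.29). In the activin and TGF-beta list Ltbp1, a binding protein of latent TGF-beta, fell (log2 fold change -1.38, SE 0.33, adjusted p = 0.0157) among 15, with Tgfb1 at a log2 fold change of -0.22 (adjusted p = 0.313, SE 0.13). In the coagulation list 3 of 14 measured genes fell, among them Gas6 (log2 fold change -0.92, SE 0.23, adjusted p = 0.02102), a ligand of Axl, and Plau (log2 fold change -0.69, SE 0.19, adjusted p = 0.0299), the plasminogen activator urokinase. Without mock library 3 the calls of Csf1, Il1a, Ltbp1, Gas6 and Plau were lost (highest adjusted p over leave-outs 0.0726, 0.0538, 0.0975, 0.106 and 0.167), and Cxcr6 lost its call in 3 leave-outs (0.115).

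The same dose had also been sampled at day 5 (6 libraries after 1x20Gy, 4 after 1x0Gy), which allowed the response at each day to be set side by side in 1 fit over all 31 libraries. Sample codes differ between the days, so day and experiment cannot be told apart, and levels were not compared across days. At day 5, 500 genes were higher (4.15% of 12061 tested) and 758 lower (6.28%). The difference of the responses, day 13 minus day 5, passed for 25 genes in the positive (0.207%) and 26 in the negative direction (0.216%), with 1499 at an unadjusted p below 0.05. Counts were simulated with changes only in genes at a mean level of 5 CPM or more and no variation shared by the genes of a library. On these counts, the test of this difference recovered 50% of 2-fold and 93% of 4-fold changes. A small count of genes that passed therefore does not show that the responses were alike. On the negative side, Mmp12 had a log2 fold change of 1.06 (adjusted p = 0.124, SE 0.44) at day 5 and -1.63 (adjusted p = 0.0183, SE 0.42) at day 13 in this fit, a difference of -2.70 (adjusted p = 0.04503, SE 0.61). At day 5 its levels were 116 ± 57.2 CPM (SD, n = 6) against 55.7 ± 22.998 CPM (n = 4). Pgf had 0.96 (adjusted p = 0.0193, SE 0.27) at day 5 and -1.30 (adjusted p = 0.00516, SE 0.28) at day 13, a difference of -2.25 (adjusted p = 0.0111, SE 0.39), and so was higher at day 5 and lower at day 13 than in the mock libraries of that day. Egr2 had 0.42 (adjusted p = 0.407, SE 0.28) at day 5, -1.44 (adjusted p = 0.00292, SE 0.28) at day 13 and a difference of -1.86 (adjusted p = 0.04503, SE 0.40). At day 5 the Egr2 and Mmp12 responses did not pass. Inhba, which codes for the activin A subunit, had 2.91 (adjusted p = 8.64e-06, SE 0.39) at day 5 and 0.39 (adjusted p = 0.622, SE 0.40) at day 13, a difference of -2.52 (adjusted p = 0.04503, SE 0.55), and coagulation factor gene F10 2.50 (adjusted p = 4.82e-05, SE 0.38) and -0.04 (adjusted p = 0.966, SE 0.39), a difference of -2.54 (adjusted p = 0.04503, SE 0.53). On the positive side, Spry2, an inhibitor of growth factor signalling, had -1.43 (adjusted p = 0.000442, SE 0.26) at day 5 and 0.996 (adjusted p = 0.0228, SE 0.26) at day 13, a difference of 2.42 (adjusted p = 0.00345, SE 0.37), and Cldn7, a tight junction gene, -2.85 (adjusted p = 0.003401, SE 0.65) and 0.79 (adjusted p = 0.326, SE 0.45), a difference of 3.63 (adjusted p = 0.04503, SE 0.80). Bst2, which stands in the plasmacytoid and the type I interferon lists, had -1.04 (adjusted p = 0.000719, SE 0.20) at day 5 and 0.37 (adjusted p = 0.296, SE 0.20) at day 13, a difference of 1.40 (adjusted p = 0.04503, SE 0.29). Of 20 mitosis genes 4 had a lower response at day 13 than at day 5 and 0 a higher one, and of 19 S phase genes 1 and 0. The mitotic kinase gene Plk1 had 1.02 (adjusted p = 0.000326, SE 0.18) at day 5 and -0.30 (adjusted p = 0.347, SE 0.18) at day 13, a difference of -1.31 (adjusted p = 0.0441, SE 0.25), and Ccnb1, Birc5 and Ube2c had differences of -1.22, -1.03 and -1.29.

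Counts of list members at day 5 are given beside those of day 13, and the difference between such counts was not tested. In the 31-library fit at day 5, 7 T cell, 1 NK cell, 9 regulatory T cell and 5 neutrophil genes were higher, with list medians of 0.79, 0.26, 1.47 and 1.98. In the hypoxia and glycolysis list 3 were higher and 5 lower (median -0.20), and in the epithelial list 0 were higher and 5 lower (median -1.47). Of the lysosome, lipid and fibroblast lists 7, 5 and 4 genes were lower and 0 higher (medians -0.42, -0.38 and -1.30). In the macrophage identity list 1 was higher and 1 lower (median -0.24). The number of genes whose response differed between the days hung on single day 13 libraries. In place of 51 it was 2, 12, 15, 110, 2 and 16 without irradiated library 1, 3, 4, 5, 6 and 7, and 2, 4, 1 and 2 without mock library 1, 2, 3 and 4.

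**Figure D5:**
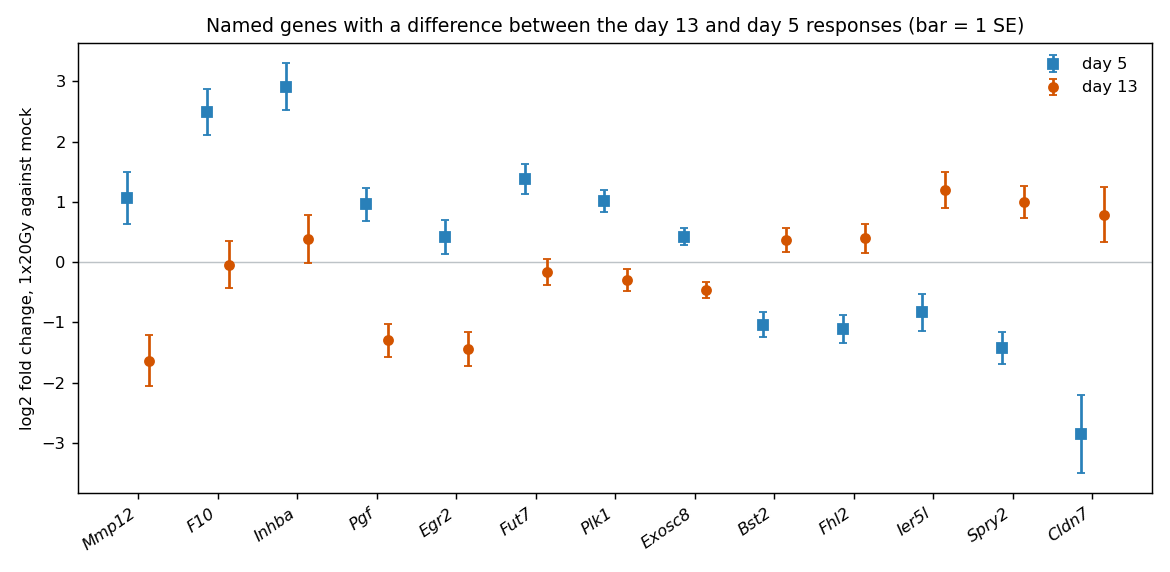
Log2 fold change of 1x20Gy against 1x0Gy (y axis) at day 5 (squares) and day 13 (circles) from 1 fit over 31 libraries, with bars of 1 SE, for the 13 named genes whose difference between days passed the test. Day 13 lies below day 5 for Mmp12, Pgf, Egr2 and Inhba and above it for Spry2 and Cldn7.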

How the data were processed

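The authors deposited 1 table of counts per library, whole numbers of reads per gene symbol with 5 summary lines of the counting tool. Per the submitters' processing notes, bcl2fastq 2.20.0.422, cutadapt 1.5, HISAT2 2.0.4 and HTSeq 0.9.1 were used with GRCm38 and mm10. Annotation, strand setting and read filters are not given in the sources used here. Without the strand setting, overlapping and antisense genes cannot be told apart. Summary lines were removed. Groups follow the sample titles. Counts of the 11 libraries were fitted in R 4.3.3 with edgeR 4.0.16 (TMM, filterByExpr with minimum count 10 and minimum total 15, quasi-likelihood test, two-sided, Benjamini-Hochberg over all genes tested, threshold 0.05). The SE is the absolute log2 fold change divided by the square root of F. Library measures had exact permutation tests.

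Depth was 2641229 to 4214112 gene counts, and reads carried no molecular identifiers, so limits cover counting error only. Replicate pairs differed beyond sampling noise (chi-square per degree of freedom 3.42 to 49.1 over 27 pairs). Both extremes were mock pairs, libraries 1 and 2 at 3.42 and libraries 2 and 3 at 49.1. The highest irradiated pair, libraries 4 and 5, stood at 29.3. Counts were simulated for the day 13 comparison over 11071 genes. Changes were placed only in genes with a mean level of 5 CPM or more, and counts varied independently between genes. Of these changes, 87% of 2-fold and 99% of 4-fold ones were recovered, and 3.125% of calls were false. Recovery at lower levels, or with variation shared by the genes of a library, was not examined. Of 755 entries in 46 gene lists, 746 matched as written, 7 by an older symbol and 2 not at all. The members and lists were chosen with earlier results of these data known. Named genes are the 15 largest called changes in each direction (ordinary symbols, mean level 5 CPM or more), up to 3 called members per list and direction with the largest change, the defining members of each list, RP23-81C12.3, and the 5 smallest p-values in each direction for the difference between days. Other list members are named to complete a count, after their values were seen. A few genes that these rules cover are not reported here. Positions came from GENCODE M21 (169 of 171 named genes found) and promoter windows from RefSeq. Alternatives were DESeq2 1.42.0, limma 3.58.1 voom, other scalings and filters, added terms and libraries left out.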

Additional observations from a re-analysis of the deposited data

Results flagged for a closer look

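Single libraries stood far from the rest of their group in 16 of 334 groups of values examined, about the 5% that chance gives. The values that follow are therefore listed as flags only. Irradiated library 4 carried the most RP23-81C12.3, 375289 CPM or 31.5% of its gene counts, and its 50 most abundant genes took 44.5%. The same library had the lowest Isg15, at 300.4 CPM. In irradiated library 3, Emr1 was highest at 104 CPM and Tnf lowest at 35.4 CPM. Irradiated library 5 had the highest Smoc1, at 10.2 CPM, and the lowest F10, at 2.86 CPM.

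Among the mock libraries, library 2 was lowest for Msc (0.809 CPM), Ifng (6.47 CPM) and S100a8 (17.8 CPM) and highest for Bst2 (169 CPM). Mock library 3 was lowest for Ccr9, at 6.69 CPM, and for Prf1, at 3.34 CPM. Mock library 4 was highest for Mmp9, at 4.16 CPM, and for Klra4, at 9.01 CPM.

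The response to 1x20Gy differed between day 13 and day 5 for 13 of the named genes, as log2 fold changes at day 13 minus day 5 in 1 fit over 31 libraries. Up to 5 of them in each direction were named for their small p-value in this same contrast, so the count is partly set by that choice. Over all genes tested, 0.207% passed in the positive and 0.216% in the negative direction. Negative differences were -2.25 for Pgf, -1.86 for Egr2, -2.70 for Mmp12, -2.52 for Inhba, -2.54 for F10, -1.31 for Plk1, -1.54 for Fut7 and -0.89 for Exosc8. Positive differences were 2.42 for Spry2, 1.40 for Bst2, 2.03 for Ier5l, 3.63 for Cldn7 and 1.51 for Fhl2. Day and experiment cannot be told apart in these values.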

How the results depend on the processing

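Where edgeR called 467 genes higher and 424 lower, DESeq2 called 718 and 547, with 467 and 421 of the edgeR calls among them. Scaling to library size alone gave 222 higher and 1311 lower, all 31 libraries in 1 fit 272 and 356, and a threshold of 0.01 on the adjusted p 114 and 176. With 1 library left out, 132 to 692 genes rose and 174 to 572 fell, both lowest without mock library 3 and highest without irradiated library 5. The mean epithelial and fibroblast level in the fit gave 124 higher and 73 lower. The share of reads outside genes as a term gave 628 and 550. Of the alternatives chosen after seeing the data, the mitochondrial share as a term gave 1000 and 777, leaving out irradiated libraries 2 and 5 gave 993 and 856, and the RP23-81C12.3 share as a term gave 0 and 0 (910 at an unadjusted p below 0.05), with 883 of the 891 calls keeping their sign. That term turned AA474408 to -0.00486 and RP23-81C12.3 to -0.21. For RP23-81C12.3 the term is the gene's own share, so the value with it carries no information. Without the term, edgeR's test gave RP23-81C12.3 a log2 fold change of 1.45 (adjusted p = 0.0466), a call lost in 8 of 11 leave-outs. The cause of the changes with these alternatives was not tested. Of 115 named genes called, 67 passed in all 11 leave-outs and 17 were lost only without mock library 3. In the fit over all 31 libraries 40 were lost, with the mean epithelial and fibroblast level 72, and with the share of reads outside genes 20. With the replicate number as a block 582 genes rose and 482 fell, in place of 467 and 424, and S100a8, Vwf, H2-Aa, Trib3, Plau, Srebf2 and Exosc8 lost their calls. Same-numbered libraries correlated at -0.03, 0.33, 0.14 and 0.21, not all above 0.1, and no label ties the numbers to a shared source, so they were treated as names only. Irradiated libraries 2, 3 and 4 correlated best with the mock library of their own number, irradiated library 1 and the mock libraries did not. The number of genes whose response differed between days was 51, 237 with the 21 libraries of 1x20Gy and 1x0Gy, 228 in DESeq2, and 1 to 110 with 1 day 13 library left out. The share of reads outside genes differed by 5.35 percentage points, and by 4.30 to 6.29 with 1 library left out (exact permutation test, two-sided p = 0.0364, 0.0545 adjusted over 6 measures, and above 0.05 unadjusted in 5 leave-outs). The mitochondrial share differed by -1.39 percentage points, and by -1.79 to -1.09 (exact permutation p = 0.0909, 0.109 adjusted, and unadjusted 0.0143 without irradiated library 5 and 0.0417 without mock library 3). Depth limits genes under a few CPM, where 3 counts correspond to 0.712 to 1.14 CPM.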
